A study of Gallus gallus with 12 samples.

Results

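Among the 16930 lncRNAs measured in the liver of Luhua hens, 82 (0.484%) were high at sexual maturity and again at broodiness and low at the juvenile and peak laying stages. The members were chosen from the lncRNA expression values themselves. For each lncRNA the stage mean of log2(FPKM + 1) was taken over 3 livers, and a member was an lncRNA whose lower mean of SM and BP exceeded its higher mean of JP and PL by at least 1. FPKM counts sequenced fragments relative to transcript length and to the mapped total of the library. The difference between the SM and BP livers and the JP and PL livers is therefore what defined the members. It is given as a description with no test, and only the differences between SM and BP and between JP and PL were tested. The rule was not blind to these differences. It takes the lower of SM and BP and the higher of JP and PL, so a large difference within either pair lowers the margin. Counts of calls among the members are therefore affected by how the members were chosen.

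Long non-coding RNAs (lncRNAs) are transcripts longer than short regulatory RNAs that carry no recognised protein-coding frame, and many are present at low levels and in a narrow range of tissues or times. In the hen, the liver makes the lipids and the yolk precursor proteins, the vitellogenins and the very low density lipoproteins, which travel in the blood to the growing follicles. The ovary's oestrogen drives this synthesis as a hen comes into lay, and in broodiness, the period of incubation behaviour, laying stops and the ovary regresses.

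The study sequenced ribosomal RNA-depleted liver RNA from 12 female Luhua chickens, an indigenous Chinese breed, in strand-specific libraries. The groups were the juvenile period (JP, day 60), sexual maturity (SM, day 133), peak laying (PL, day 220) and broodiness (BP, day 400), with 3 hens in each. The labels name no treatment, and age and laying state changed together, so that they cannot be told apart. The tissue was whole liver, in which fewer cells of a type and less RNA per cell cannot be told apart either.

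The members are known by the identifiers of the transcript assembly, such as TCONS_00074302. They carry no gene name, and the role of single members was not examined. Their positions in the genome and their sequences were not analysed here.

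The libraries of SM and BP stood apart from those of JP and PL in more than the members. The study's mapping summary gives a lower share of mapped reads for every SM and BP library than for any JP or PL library. All mRNAs together summed to 408296 to 539529 FPKM per JP or PL liver, and to 688208 to 772041 FPKM per SM or BP liver. For the lncRNAs outside the set the sums were 2955 to 3828 FPKM per JP or PL liver, against 4584 to 5707 FPKM per SM or BP liver. Between 9745 and 10278 lncRNAs were listed at 0 in each JP or PL liver and 7687 to 8922 in each SM or BP liver. The median ratio of a liver to the geometric mean, over mRNAs above 0 in all 12 livers, was -0.55 to 0.06 on the log2 scale for JP and PL and 0.02 to 0.34 for SM and BP. The same ratio over lncRNAs above 0 in every liver was -0.69 to -0.09 for JP and PL and 0.29 to 0.75 for SM and BP. Low FPKM values of a transcript repeat in steps of 1 fragment, and the worth of 1 fragment, on the log2 scale relative to JP replicate 1, was -0.05 to 0.58 at JP or PL and 0.40 to 0.67 at SM or BP. The median ratio over mRNAs and the worth of 1 fragment overlapped between these groups of livers, and the other values did not. The FPKM sums, median ratios and fragment worth were on balance higher, and the mapped share and the number of zeros lower, in the SM and BP livers, so that a library effect and a stage effect of that size cannot be told apart.

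The set was therefore also examined after dividing each liver by its median ratio. The median margin was 1.33 on the log2 scale as deposited, 1.07 after scaling on mRNAs and 0.77 after scaling on lncRNAs. The lowest margins were 0.64 and 0.19 after scaling. The required margin of 1 was still met by 48 members under the first scaling and by 30 under the second, and the 30 were among the 48. Of those 30, 26 also met the rule in each of the 12 calculations that left out 1 liver. The margin remained above 0 in all 82 under both scalings, which the required margin of 1 makes likely for shifts of this size and which is no sign of stability. How many lncRNAs met the rule thus depended on the scaling.

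**Figure D1:**
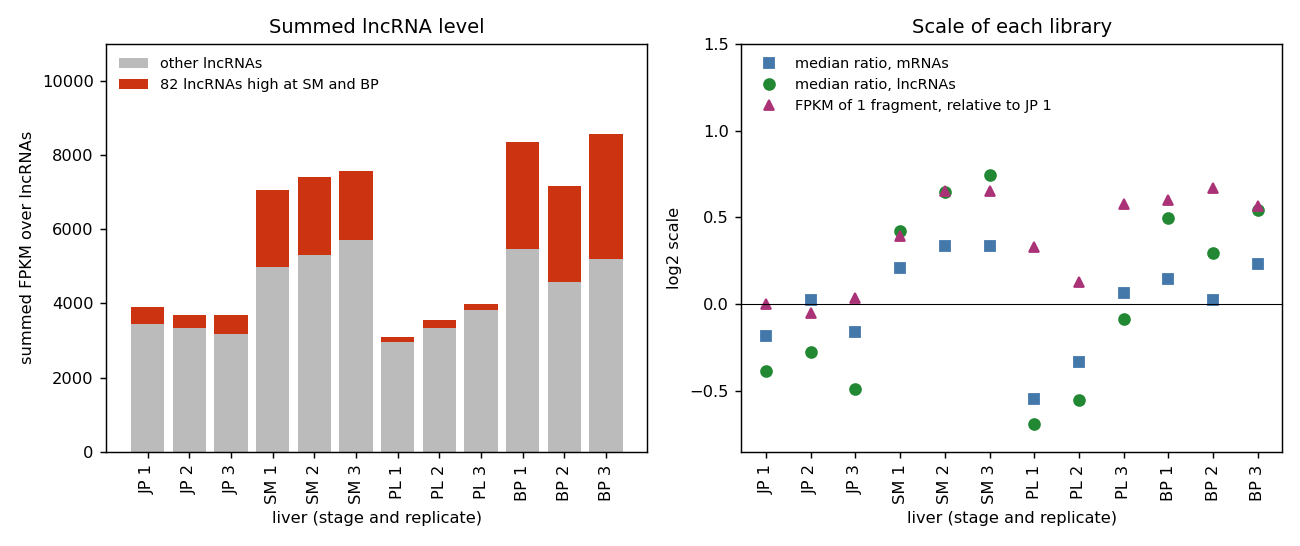
Left, summed FPKM in each liver of the 82 lncRNAs (red) stacked on all other lncRNAs (grey). Right, on the log2 scale, the median ratio of each liver over mRNAs (squares) and over lncRNAs (circles) and the FPKM worth of 1 fragment relative to JP replicate 1 (triangles). The 82 lncRNAs, chosen for this contrast, had the highest sums in the 6 SM and BP livers, 1861 to 3373 FPKM against 152 to 502 FPKM in the JP and PL livers. The median ratio over lncRNAs was above 0 in every SM and BP liver and below 0 in every JP and PL liver.

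The opposite pattern was rare in the same table. Only TCONS_00220501 was lower at both SM and BP than at both JP and PL by the same margin. It was listed at 17.9, 22.6 and 0 FPKM at JP, 0 in the 3 SM livers, 20.5, 26.1 and 29.8 FPKM at PL and 52.4, 0 and 0 FPKM at BP, so that 1 BP liver held its highest value. Fewer lncRNAs could meet the low pattern, since 291 had a stage mean of at least 1 at both JP and PL, against 668 at both SM and BP. With these unequal pools, the high lncRNAs were 98.8% of those past the margin in either direction as deposited. After scaling on mRNAs they were 96.0% (48 high and 2 low), and after scaling on lncRNAs 73.2% (30 high and 11 low).

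A stage mean of at least 1 at both SM and BP was needed to be a member, and 668 lncRNAs had one, of which the 82 were 12.3%. By the same rule 546 of 18260 mRNAs were high at SM and BP, and these were 4.91% of the 11120 mRNAs whose means allowed it. The low pattern was met by 45 mRNAs as deposited, of the 9866 whose means allowed it. After scaling on mRNAs, 271 mRNAs were high and 114 low. The shares of lncRNAs and mRNAs were not tested against each other.

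The set made up a large part of the lncRNA signal of the SM and BP livers. The 82 lncRNAs held 24.6% to 29.6% of all lncRNA FPKM in the SM livers and 34.5% to 39.3% in the BP livers. They held 8.92% to 13.6% in the JP livers and 3.94% to 6.24% in the PL livers. The sum over the set was 481, 328 and 502 FPKM at JP and 2090, 2104 and 1861 FPKM at SM. It was 152, 222 and 157 FPKM at PL and 2879, 2590 and 3373 FPKM at BP. No JP or PL liver reached the lowest SM or BP liver. The members were chosen for this contrast, so nothing is read from that separation or from the shares. The 3 PL livers all lay below the 3 JP livers. Without the 4 highest members (TCONS_00074304, TCONS_00226697, TCONS_00226696 and TCONS_00074302) the sums were 120 to 173 FPKM at JP, 721 to 814 FPKM at SM, 77.4 to 130 FPKM at PL and 675 to 938 FPKM at BP. The SM and BP livers then overlapped, and so did the JP and PL livers.

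Of the 20 lncRNAs with the highest mean FPKM, 7 were members at SM, 8 at BP, 3 at JP and 2 at PL. Among the 100 highest the set supplied 32 at SM, 33 at BP, 15 at JP and 10 at PL. The rule favours higher ranks at SM and BP, so nothing is read from these counts. Most members were of moderate level, since the lower of the SM and BP levels corresponded to under 2 FPKM in 16 members, 2 to under 10 FPKM in 46 and at least 10 FPKM in 20. The median over the 82 of the stage mean of log2(FPKM + 1) was 2.68 at SM and 2.76 at BP, beside 0.89 at JP and 0.63 at PL. Over all lncRNAs the corresponding medians were 0.04 at both SM and BP and 0.01 at both JP and PL. Between the 3 livers of a stage the members' median standard deviation (SD) was 0.35 for SM, 0.29 for BP, 0.12 for JP and 0.20 for PL on this scale. The 19 members at 0 in all JP and PL livers have an SD of 0 there, and the scale compresses low values. The spreads are therefore not compared between stages.

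**Figure D2:**
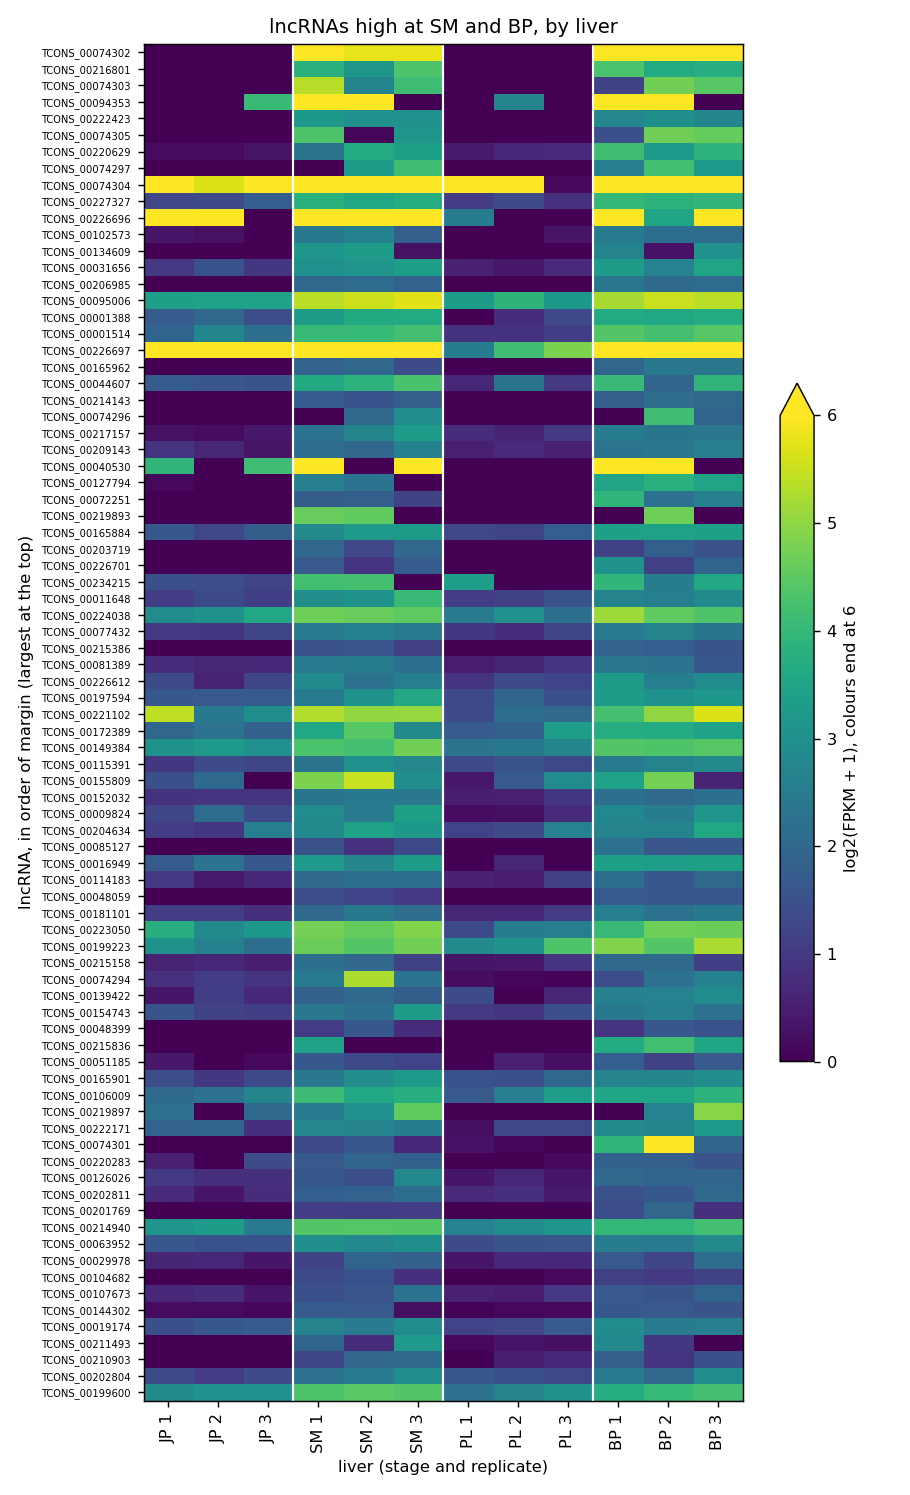
log2(FPKM + 1) of each of the 82 lncRNAs (rows) in each of the 12 livers (columns, by stage), in order of margin with the largest at the top, on a colour scale that ends at 6. The SM and BP columns were higher than the JP and PL columns in most rows, the contrast used by the rule. In all JP and PL livers 19 rows were at 0, and 10 rows held a 0 in at least 1 SM or BP liver.

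The margins were mostly close to the minimum. They ran from 1.004 to 6.15 with a median of 1.33, and 52 members lay between 1 and 1.5, 17 between 1.5 and 2, and 13 at 2 or above. The 3 members nearest to the threshold were TCONS_00210903 (margin 1.014), TCONS_00202804 (1.009) and TCONS_00199600 (1.004). The 3 lncRNAs just outside were TCONS_00217659 (0.998), TCONS_00220361 (0.993) and TCONS_00072460 (0.985). TCONS_00199600, for example, was at 6.24, 7.20 and 7.24 FPKM at JP, 18.9, 20.9 and 19.9 FPKM at SM, 3.70, 5.45 and 7.43 FPKM at PL and 12.2, 15.2 and 17.5 FPKM at BP. A lncRNA at the edge of the rule could thus still have livers that did not overlap.

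In 67 of the 82 members (the remaining 15 overlapped), all 6 SM and BP livers lay above all 6 JP and PL livers. The same was true of 832 of all 16930 lncRNAs (4.91%) and of 775 of the 6254 lncRNAs that exceeded 0.1 FPKM in 3 or more livers (12.4%). The rule used this contrast, so nothing is read from the count. All 82 members passed that filter on low values. The 15 that overlapped comprised 10 members with a 0 in at least 1 SM or BP liver and 5 without one.

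By their values in the JP and PL livers the members fell into 3 classes. There were 44 members above 0 in all 12 livers, 19 listed at 0 in all 6 JP and PL livers, and 19 that were listed at 0 in some liver but not in all of JP and PL. The median margin was 1.25, 1.64 and 1.21 in these classes. A 0 in a table of FPKM can also be a failed estimate of a transcript. Where lncRNAs with a 0 are described, liver values or their range are therefore given and no ratio of FPKM. The tested differences of log2(FPKM + 1) and the counts by fold include such zeros.

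The 44 members above 0 in all livers had a median ratio of 4.57 between the mean FPKM of the SM and BP livers and that of the JP and PL livers, with a range of 2.59 to 30.8. Groups did not overlap in 41 of them. The rule used this contrast, and the share among all lncRNAs above 0 in every liver was not computed. Nothing is therefore read from that count. The largest margin among the 44 was that of TCONS_00220629 (2.52), which had 0.122, 0.123 and 0.239 FPKM at JP and 0.354, 0.587 and 0.675 FPKM at PL. In the SM livers it had 3.95, 11.99 and 9.58 FPKM, and in the BP livers 16.9, 8.45 and 13.8 FPKM. All JP and PL livers were below 1 FPKM and all SM and BP livers above 3.

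Several members of this class had livers close together within a stage. TCONS_00095006, the fifth highest member by the lower of its SM and BP means of log2(FPKM + 1), had 9.41, 9.89 and 10.03 FPKM at JP and 40.3, 46.0 and 52.0 FPKM at SM. It had 8.99, 13.8 and 8.20 FPKM at PL and 36.3, 45.1 and 40.3 FPKM at BP. The SM and BP values overlapped, as did the JP and PL values, and the groups of livers the rule compared were far apart. TCONS_00227327 was also close within stages at a lower level, with 1.42 to 2.49 FPKM at JP, 10.9 to 13.2 FPKM at SM, 0.819 to 1.59 FPKM at PL and 13.6 to 15.0 FPKM at BP. Its BP livers were all slightly above its SM livers.

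The 19 members listed at 0 in all JP and PL livers included 6 of the 8 with the largest margins. In 15 of the 19 every SM and BP liver was above 0. TCONS_00074302 had the largest margin of the set (6.15) and was listed at 115, 53.6 and 55.8 FPKM at SM and 188, 236 and 260 FPKM at BP. TCONS_00216801 (margin 3.78) was listed at 13.0, 8.06 and 19.5 FPKM at SM and 18.8, 11.8 and 12.4 FPKM at BP. TCONS_00222423 (margin 2.84) had the closest values of these, 8.19, 7.26 and 7.06 FPKM at SM and 5.85, 6.94 and 5.73 FPKM at BP. In these lncRNAs all SM and BP livers held a clear signal. TCONS_00206985 was listed between 2.69 and 4.12 FPKM in the 6 livers and TCONS_00214143 between 1.85 and 3.40 FPKM.

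The others with a large margin and a 0 at JP and PL varied more between livers of a stage. TCONS_00074303 (margin 3.46) was listed at 39.8, 5.51 and 16.6 FPKM at SM and 1.29, 25.6 and 20.8 FPKM at BP. TCONS_00074305 (margin 2.52) was listed at 19.4, 0.0607 and 7.79 FPKM at SM and 1.78, 25.0 and 23.0 FPKM at BP. TCONS_00074297 (margin 2.49) was listed at 0, 8.96 and 16.8 FPKM at SM and 4.89, 17.3 and 8.32 FPKM at BP. BP replicate 1 was the lowest BP liver in all 3, and the lowest SM liver was replicate 2 in the first pair and replicate 1 in TCONS_00074297.

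**Figure D3:**
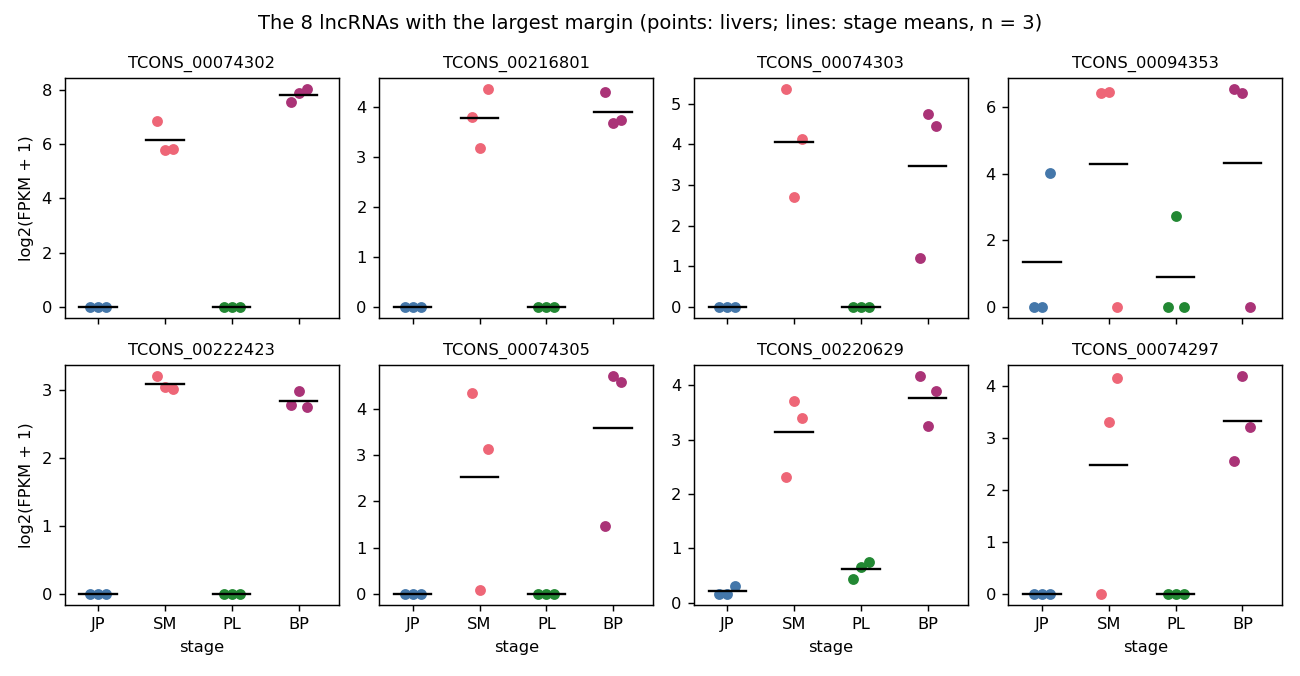
log2(FPKM + 1) in each liver for the 8 lncRNAs with the largest margins, by stage, with the stage means as lines. Each panel has its own vertical axis. TCONS_00222423 had SM and BP livers close together and every JP and PL liver at 0, TCONS_00074302 was higher at BP than at SM, and TCONS_00094353 was at 0 in 1 SM and in 1 BP liver.

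A 0 in at least 1 SM or BP liver was held by 10 members, and 72 had none. TCONS_00094353 (margin 2.96) was listed at 86.0, 88.0 and 0 FPKM at SM and 92.5, 84.7 and 0 FPKM at BP. The same lncRNA was at 15.4 FPKM in 1 JP liver and at 5.69 FPKM in 1 PL liver, and at 0 in the other 4 livers of these stages. Its 4 high SM and BP livers lay within a narrow range and replicate 3 of each stage was listed at 0.

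A comparable on and off pattern was seen in TCONS_00040530, here with a partner. It was listed at 14.3, 0 and 16.5 FPKM at JP, 88.2, 0 and 84.9 FPKM at SM, 0 in all PL livers and 105, 92.2 and 0 FPKM at BP. TCONS_00040532, which carries a nearby identifier and is no member, was listed at 20.7 FPKM in JP replicate 2 and 122 FPKM in BP replicate 3, where the member was at 0. Elsewhere it was at 0 or, in SM replicates 2 and 3, at 0.0208 and 1.58 FPKM. Their sum was 14.3, 20.7 and 16.5 FPKM at JP, 88.2, 0.0208 and 86.5 FPKM at SM, 0 at PL and 105, 92.2 and 122 FPKM at BP. The sum was even over the JP and BP livers, and SM replicate 2 remained without signal. Summed with all lncRNAs within 3 identifier numbers, TCONS_00040530 did not meet the rule (margin 0.085). Assembled transcripts of the same locus share reads, and the estimate can place them on either. Whether these belong to the same locus was not tested.

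Identifiers of the assembly that lie close together were examined for the whole set, a step chosen after the values were seen. Another lncRNA within 3 numbers existed for 51 members. When each lncRNA was summed with all others within 3 numbers, 73 of the 82 still met the rule, and so did 8 of the 10 members with a 0 at SM or BP. A member with no such neighbour, for example TCONS_00127794 among the 10, is its own sum and could not fail. Members of the same run share part of their sums, so the 73 are not separate results. The 82 members formed 75 runs of identifiers at most 3 apart, of which 72 were single, 1 was a pair and 2 were longer.

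The 2 longer runs lay side by side, with 5 members from TCONS_00074301 to TCONS_00074305 and 3 members at TCONS_00074294, TCONS_00074296 and TCONS_00074297. The 10 lncRNAs listed from TCONS_00074294 to TCONS_00074305 thus held 8 members. Their summed level was 135, 51.7 and 185 FPKM at JP and 636, 870 and 548 FPKM at SM. It was 64.9, 101 and 0.155 FPKM at PL and 1139, 1364 and 1698 FPKM at BP. The 10 lncRNAs were 7.25% to 11.7% of all lncRNA FPKM in the SM livers and 13.6% to 19.8% in the BP livers. Every BP liver lay above every SM liver, every SM liver above every JP liver, and PL replicate 3 was almost without signal from the whole block. TCONS_00074293, with the preceding identifier, is no member and is not in this sum. It was listed at 261 FPKM in BP replicate 1 and at 0 in all other livers.

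Most of this sum came from TCONS_00074304, the highest lncRNA of the table at both SM and BP. It was at 135, 50.5 and 184 FPKM at JP and 421, 756 and 417 FPKM at SM. At PL it was at 64.5, 100 and 0.120 FPKM and at BP at 926, 880 and 1376 FPKM. The JP livers overlapped with the PL livers, and the SM and BP livers were higher than both without overlap. The other members of the block were much lower or at 0 in the JP and PL livers. TCONS_00074294 was at 0.795, 1.11 and 0.894 FPKM at JP, 4.45, 37.2 and 3.87 FPKM at SM, 0.151, 0.0667 and 0.0348 FPKM at PL and 1.69, 3.79 and 5.19 FPKM at BP. TCONS_00074296 was listed at 0, 2.98 and 6.58 FPKM at SM and 0, 16.9 and 2.80 FPKM at BP, and at 0 at JP and PL. Whether the transcripts of the block overlap was not analysed. If they do, the estimate can move reads between them, and levels of single members are then less certain than their sum.

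**Figure D4:**
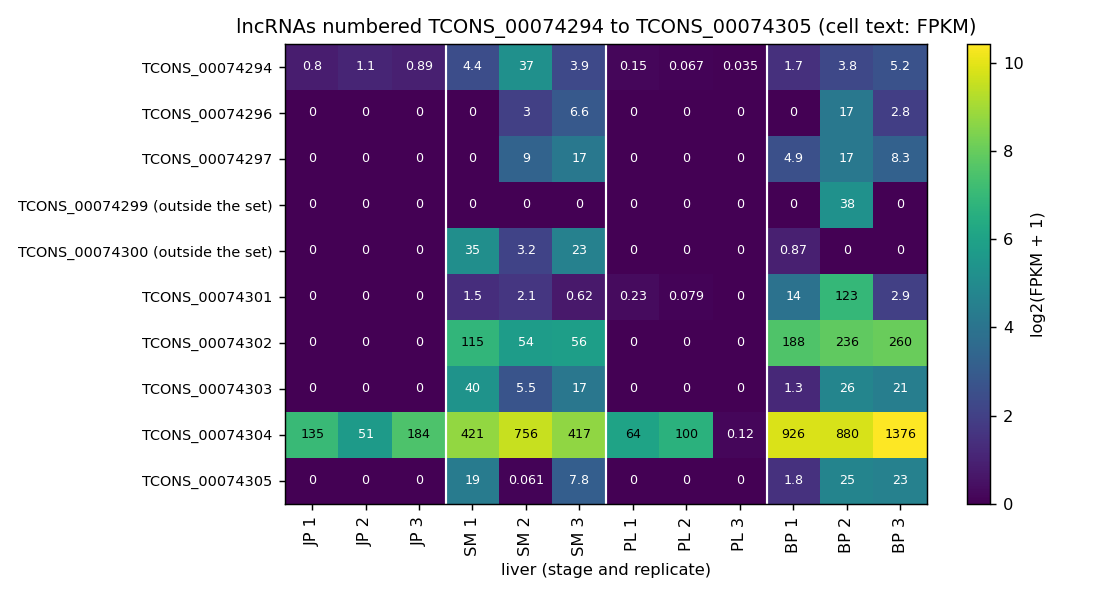
The 10 lncRNAs from TCONS_00074294 to TCONS_00074305 (rows, 8 of them members) in each of the 12 livers (columns, by stage), with log2(FPKM + 1) as colour and the FPKM printed in each cell. TCONS_00074304 was the highest of the 10 in every liver, and all 10 together held 0.155 FPKM in PL replicate 3.

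The pair consisted of TCONS_00226697 and TCONS_00226696, which follow TCONS_00074304 among the members by the lower of the SM and BP means of log2(FPKM + 1). TCONS_00226697 was at 93.7, 76.9 and 167 FPKM at JP, 469, 319 and 323 FPKM at SM, 4.86, 16.8 and 27.3 FPKM at PL and 645, 526 and 915 FPKM at BP. TCONS_00226696 was listed at 79.2, 80.2 and 0 FPKM at JP, 271, 237 and 344 FPKM at SM, 4.77, 0 and 0 FPKM at PL and 331, 10.6 and 148 FPKM at BP. The first was ordered PL, JP, SM and BP with no overlap between any of these stages, while the second was low in 1 BP liver, which overlapped with JP. Summed, they were at 157 to 173 FPKM at JP, 556 to 739 FPKM at SM, 9.63 to 27.3 FPKM at PL and 536 to 1063 FPKM at BP. On the sum the 3 JP livers, of which 1 lacked TCONS_00226696, lay close together.

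The SM and BP livers were compared for each member. The rule disfavours a large difference between these stages, so a low count of calls is partly set by the choice of members. With limma on log2(FPKM + 1), an adjusted p (Benjamini-Hochberg over 6254 lncRNAs) under 0.05 and a fold of at least 1.5, 1 of the 82 members was called. This is 1.22% of the members, beside 1.34% (84) of all lncRNAs tested. Among the 1067 lncRNAs with FPKM above 1 in at least 3 livers, fitted alone, 42 were called (3.94%) and 1 of the 82 members. The members' share was thus near or below the background depending on the filter. Of the 84, 33 were higher at BP (0.528%) and 51 at SM (0.815%), a split that became 24 and 26 after scaling on mRNAs and 17 and 15 after scaling on lncRNAs. As deposited, the mean was higher at SM in 40 members and at BP in 42. The median difference between BP and SM was 0.015 over the members and -0.021 over all lncRNAs tested, on the log2 scale. After scaling the members' median moved towards BP, to 0.128 on mRNAs and 0.121 on lncRNAs, with 0.004 over all lncRNAs in both. In 60 members the difference was under 1.5-fold, in 13 it was at least 1.5-fold towards BP and in 9 at least 1.5-fold towards SM. Together these are 26.8% of the members, beside 5.36% of all lncRNAs tested and 20.3% of the 1067 lncRNAs with FPKM above 1 in at least 3 livers, a filter that all 82 members passed. Among the 44 members above 0 in all livers, the 95% interval of the difference lay within 1.5-fold in 7 and within 2-fold in 30. Over all 82 members it reached beyond 2-fold in 35, so a missing call does not show equal levels.

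The member called was TCONS_00074302, with the values given above. It was higher in each of the 3 BP livers than in each SM liver, by 1.67 on the log2(FPKM + 1) scale (SE 0.29, limma adjusted p = 0.0120, 95% interval 1.03 to 2.31). This lncRNA was at 0 in all 6 JP and PL livers, and these zeros entered the spread shared by the 4 stages. With only the 6 SM and BP livers the difference was the same, with an SE of 0.33 and a limma adjusted p of 0.143. That fit also has fewer residual degrees of freedom, and what the zeros contribute to the call was not tested. The number of members called was 3 without SM replicate 1, and 2 without SM replicate 3 or without any 1 of the BP replicates.

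Without adjustment, 12 members had a limma p under 0.05 between SM and BP (14.6%, beside 14.8% of all lncRNAs tested), 11 higher at BP and 1, TCONS_00011648, higher at SM. Of the 12, 7 were listed at 0 in all JP and PL livers, and their zeros entered the shared spread in the same way. Among all lncRNAs 360 were higher at BP and 567 higher at SM at this level. Among the 1067 lncRNAs with FPKM above 1 in at least 3 livers, fitted alone, 190 reached it, 75 higher at BP and 115 at SM. After scaling on mRNAs 14 members were higher at BP and 0 at SM, and after scaling on lncRNAs 14 and 1. The members with the largest differences that were not called were TCONS_00074301, TCONS_00215836 and TCONS_00127794, named here after their values were seen. TCONS_00074301 was at 1.55, 2.11 and 0.620 FPKM at SM and 14.2, 123 and 2.89 FPKM at BP, a difference of 3.05 (SE 0.88, limma adjusted p = 0.108). TCONS_00215836 was at 9.87, 0 and 0.000264 FPKM at SM and 11.9, 17.0 and 10.5 FPKM at BP, a difference of 2.65 (SE 0.70, limma adjusted p = 0.0735). TCONS_00127794 was at 5.08, 3.91 and 0 FPKM at SM and 10.3, 12.9 and 10.4 FPKM at BP, a difference of 1.97 (SE 0.50, limma adjusted p = 0.0654). All 3 BP livers were above all 3 SM livers in each of the 3 lncRNAs, and none passed the test. TCONS_00215835, with the preceding identifier and no member, was listed at 14.6 and 13.4 FPKM in SM replicates 2 and 3, where TCONS_00215836 was at or near 0. Summed over identifiers within 3 numbers, TCONS_00215836 was at 9.87, 14.6 and 13.4 FPKM at SM and 11.9, 17.3 and 10.5 FPKM at BP, and the stages overlapped.

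**Figure D5:**
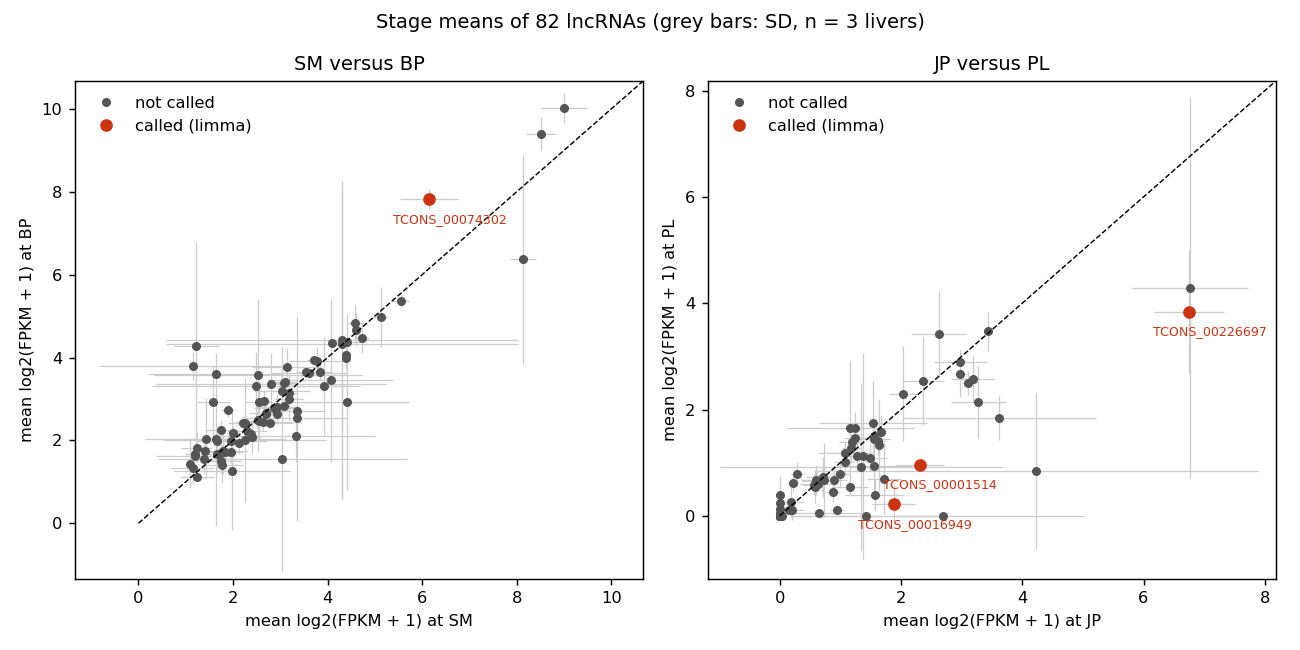
Mean log2(FPKM + 1) of the 82 lncRNAs at SM against BP (left) and at JP against PL (right), with grey bars for the SD of 3 livers. Members called by limma are in red, 1 between SM and BP and 3 between JP and PL, and the latter all lie below the diagonal, towards JP.

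The JP and PL livers were compared in the same way, with the same limit from the rule. Between JP and PL, 3 of the 82 members were called (3.66%, beside 1.25% or 78 of all lncRNAs tested), and all 3 were higher at JP. Among the 1067 lncRNAs with FPKM above 1 in at least 3 livers, fitted alone, 91 were called (8.53%) and 4 of the 82 members (4.88%), so the members' share was above or below the background depending on the filter. Among all lncRNAs 0.528% were called higher at JP and 0.72% higher at PL. Of the 91 called among the 1067, 50 were higher at JP and 41 at PL. The mean was higher at JP in 40 members and at PL in 23, and it was equal at 0 in 19. The difference was at least 1.5-fold towards JP in 17 members and towards PL in 1, against 186 and 215 of all lncRNAs tested. Together these are 22.0% of the members and 6.41% of all lncRNAs tested. Among the 1067 lncRNAs of the stricter filter the share was 22.9%, with 139 towards JP and 105 towards PL. The 9 members with an unadjusted limma p under 0.05 (11.0%, beside 13.8% of all) were all higher at JP. At this level 405 of all lncRNAs were higher at JP and 457 at PL, but among the 1067 it was 142 at JP and 109 at PL. The direction of the background thus depended on the filter. After scaling, whether on mRNAs or on lncRNAs, 10 members were higher at JP and 3 at PL at an unadjusted p under 0.05, so the shared direction at this level depended on the scaling. Among the 44 members above 0 in all livers the 95% interval lay within 1.5-fold in 8 and within 2-fold in 26. The 19 members at 0 in both stages carry no information on this difference. They passed the filter only through the SM and BP livers and could not be called here. Some other members also passed only through those livers, for example TCONS_00165962 and TCONS_00201769, at most 0.0117 and 0.0322 FPKM at JP or PL. All of these remain in the denominator of the members' shares above and lower them. No excess or lack of calls is therefore read from those shares.

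TCONS_00226697 had the largest of the called differences. It was lower at PL by 2.90 on the log2 scale (difference -2.90, SE 0.48, limma adjusted p = 0.0134), and its livers are given above with the pair. TCONS_00016949 was at 2.24, 3.86 and 2.16 FPKM at JP and was listed at 0, 0.559 and 0 FPKM at PL (difference -1.67, SE 0.26, limma adjusted p = 0.00889). At SM it was at 8.48, 5.67 and 8.75 FPKM and at BP at 9.59, 9.36 and 9.57 FPKM. TCONS_00001514 was at 2.85, 5.72 and 3.68 FPKM at JP and 0.849, 0.850 and 1.15 FPKM at PL (difference -1.35, SE 0.24, limma adjusted p = 0.0205). At SM it was at 15.8, 15.2 and 17.5 FPKM and at BP at 20.01, 17.8 and 20.7 FPKM. In these 3 lncRNAs each JP liver was above each PL liver and below each SM and BP liver. The rule requires JP means below the SM and BP means, so no order of stages is read from this.

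None of these 3 calls held when only the 6 JP and PL livers were fitted (limma adjusted p = 0.171, 0.114 and 0.119 for TCONS_00226697, TCONS_00016949 and TCONS_00001514). The call of TCONS_00001514 was also lost without JP replicate 2, PL replicate 1 or PL replicate 2 (limma adjusted p = 0.0569, 0.0512 and 0.0691), with no filter (0.0607) and with the replicate block (0.0512). That of TCONS_00226697 was lost with no filter (limma adjusted p = 0.0533). The 2-sided exact permutation test of 3 livers against 3 gave 0.1 for each of the 4 called members, the smallest value it can give.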

How the data were processed

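RNA of 12 livers was sequenced by the study in strand-specific libraries depleted of ribosomal RNA, with 3 hens at each of 4 stages. Reads were mapped to the chicken genome (Gallus gallus-5.0) and assembled, with HISAT2 2.1.0 and StringTie 1.3.3 named in the submitters' processing notes. The authors deposited FPKM values from StringTie in 1 table of 18260 mRNAs and 1 of 16930 lncRNAs (FPKM above 0 in at least 1 liver). All value columns matched a liver by name, so 0 columns were left out. The authors tested read counts with edgeR, and no count model was used here because the values are FPKM. FPKM carry no counts, so no detection limit is given. The study's mapping summary lists the clean reads of each library, and these were not used here or compared with the fragment worth. Depth was described only as the relative worth of 1 fragment (within 0.03 on the log2 scale for 95.5% of 220 triples of livers, from values under 0.2 FPKM).

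Stage means, scalings and figures were computed in Python 3.11.15 (numpy 2.4.6, pandas 2.3.3, matplotlib 3.10.9). SM with BP and JP with PL were compared by limma 3.58.1 (R 4.3.3) after transformation to log2(FPKM + 1). The 4 stages entered 1 model of 12 livers with 8 residual degrees of freedom and a variance trend, on the 6254 lncRNAs with FPKM above 0.1 in at least 3 livers. P-values were adjusted by the Benjamini-Hochberg method over these, and the fit was tested on simulated data. The simulation used normal noise and set no stage to 0, so it does not cover members at 0 in whole stages. Differences on the log2(FPKM + 1) scale understate changes of low lncRNAs. The 12 hens are separate animals.

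The members and the choices of tests and lists were made with earlier results of these data known. Members were named for the 8 largest margins, the 5 highest lower means of SM and BP, calls between SM and BP or JP and PL, the 3 on each side of the threshold, and the runs with most members. Some members outside these criteria were picked as examples for their values, among them TCONS_00227327, TCONS_00206985, TCONS_00214143, TCONS_00134609 and TCONS_00040530. The runs were taken from identifiers, a choice made after the data were seen, since positions were not analysed here. Neighbouring mRNAs and marker genes of liver cell types or yolk precursors were not analysed here, because the tables used pair no position or symbol with the transcripts.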

Additional observations from a re-analysis of the deposited data

How the results depend on the processing

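The number of lncRNAs that met the rule was 678 with 0.1 in place of 1 added before the logarithm, which lets lower levels pass the margin, and 81 of the 82 were among them. It was 48 and 30 after scaling on mRNAs and on lncRNAs. Leaving out 1 liver gave 76 to 93, and 49 members were found in every such calculation. Stage medians gave 93 (67 of the 82 among them), sums over identifiers within 3 numbers 73, and a value above 0 in all 6 SM and BP livers 72, alternatives chosen after seeing the data. The sums could not change members without a neighbouring identifier. Both filters on low values kept all 82, which the required SM and BP means make likely and which is no sign of stability. Between SM and BP, the count of members called was 0 in a fit of only the livers of those stages and 1 to 3 when 1 liver was left out. Between JP and PL it was 0 in a fit of only those stages, 1 with no filter, 5 after scaling on lncRNAs and 2 to 4 when 1 liver was left out. No called member changed direction under any alternative run. The unadjusted counts differed, since after scaling 3 members were higher at PL.

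Over all lncRNAs the calls between SM and BP and between JP and PL were 84 and 78, against 141 and 239 with 0.1 added, 52 and 30 with no filter, 42 and 91 with FPKM above 1 in at least 3 livers, 50 and 131 after scaling on mRNAs, 32 and 234 after scaling on lncRNAs, and 8 and 3 in fits of only the livers compared. Leaving out PL replicate 3 gave 158 between JP and PL, JP replicate 1 or JP replicate 2 gave 46, and PL replicate 2 gave 48 and SM replicate 1 gave 51. The deviations of same-numbered livers from their stage means had correlations of 0.014 to 0.087 between SM and BP and 0.0059 to 0.030 between JP and PL. Livers with different numbers were not compared in this way. Whether the numbers pair livers was therefore not tested. With the replicate block, 1 member was called between SM and BP (77 lncRNAs in all) and 2 between JP and PL (42 in all). The cause of these changes was not tested. The planned comparison with neighbouring mRNAs was not run, since positions were not analysed here.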
